A study of Homo sapiens with 6 samples.

Results

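The ATP-binding cassette (ABC) transporters were followed in SKOV3, a human ovarian cancer cell line that is long established, after fenbendazole or its solvent. Members were the protein-coding genes of the deposited table whose symbols run from ABCA to ABCG followed by a number, which gave 45 genes of 61552 listed. One further gene with such a symbol, ABCC13, is annotated as a pseudogene and was left out. Fenbendazole is a tubulin-binding benzimidazole used in animals against parasitic worms. It was given for 48 h at 1 µM in 3 libraries (fenbendazole 7, 8 and 9), and 3 libraries came from cells kept for 48 h with DMSO alone (DMSO 10, 11 and 12). Poly(A) RNA was sequenced, and the study asked how the drug changes the transcriptome of the line. All 6 libraries come from this single line, with no genotype difference between the groups, and nothing in the labels ties each replicate to a culture of its own. The p-values therefore cover only the spread among these libraries, part or all of which may be technical.

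ABC proteins bind and split ATP at paired nucleotide-binding domains. In subfamilies A, B, C, D and G this drives lipids, peptides, drug conjugates and other substrates across membranes. ABCE and ABCF proteins lack membrane parts and act on ribosomes and translation. ABCB1 (P-glycoprotein, MDR1), ABCG2 (BCRP) and the ABCC proteins known as MRP pumps export many anticancer drugs and are known for their part in drug resistance, in ovarian cancer among others.

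The family shares the Walker A motif, the loop that holds the phosphates of ATP: a glycine, any 2 residues, a glycine, any residue, a glycine, a lysine, and a serine or threonine. In the longest coding sequence of each gene in GENCODE release 29 (GRCh38), searched on the coding strand and in frame, 44 of the 45 members held at least 1 match and 31 held 2 or more, against 2.26% of all 19529 coding genes searched with at least 1. ABCG8 had no match to these letters. The first match is printed for the 3 members at either end of one property that bears on every comparison here, their departure in library DMSO 11 (among the tested members described here with a mean of at least 5 CPM, counts scaled to library size). Capitals mark the 24 bases of the motif and lower case the 18 coding bases on either side, 5′ to 3′ on the coding strand.
ABCA5: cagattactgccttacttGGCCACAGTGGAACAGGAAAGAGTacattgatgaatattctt
ABCE1: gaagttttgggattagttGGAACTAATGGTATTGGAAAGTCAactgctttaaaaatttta
ABCD3: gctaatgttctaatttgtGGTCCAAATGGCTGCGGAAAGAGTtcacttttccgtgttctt
ABCA2: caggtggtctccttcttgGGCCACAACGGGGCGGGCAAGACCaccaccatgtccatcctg
ABCA7: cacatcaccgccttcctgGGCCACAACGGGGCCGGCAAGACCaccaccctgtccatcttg
ABCC10: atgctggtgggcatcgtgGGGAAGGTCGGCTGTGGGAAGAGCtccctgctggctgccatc
These stretches lie in exons of the coding sequence. They are at chr17:69291241-69291300 (minus strand, exon 12) for ABCA5, chr4:145109154-145109213 (plus, exon 5) for ABCE1 and chr1:94498614-94498673 (plus, exon 17) for ABCD3. Those of the other 3 genes are at chr9:137016165-137016340 (minus, exons 21 and 22 with the intron between them) for ABCA2, chr19:1049388-1050930 (plus, exons 18 and 19 with the intron between them) for ABCA7 and chr6:43437937-43437996 (plus, exon 7) for ABCC10. The motif was spelled with different codons, and the residues at its free positions also differed between some of the genes. Of the 8 motif codons, 1 ended in G or C in ABCE1 and 3 each in ABCA5 and ABCD3, against 7 in ABCC10 and 8 each in ABCA2 and ABCA7. These genes were picked by their DMSO 11 difference, which went with GC content over the tested members. The contrast is therefore no separate result. Relative to the mean of DMSO 10 and DMSO 12, the level in DMSO 11 was lower by a log2 difference of -1.09 for ABCA5, -0.87 for ABCE1 and -0.60 for ABCD3. It was higher by 1.31 for ABCA2, 1.303 for ABCA7 and 0.85 for ABCC10, another exporter of the MRP group.

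The libraries held between 13170775 (DMSO 12) and 22128930 counts (DMSO 11), and 3 counts equal 0.132 to 0.223 CPM. DMSO 11 stood apart, with a mean correlation of log2 CPM with the other libraries of 0.942, against 0.968 to 0.973 for the others. Genes whose longest transcript has a GC content of at least 60% were higher in it by a median log2 difference of 0.92 from the mean of all 6 libraries, and genes under 40% were lower by -0.59. Of 10 markers of ovarian carcinoma lines all passed the filter on low counts. In DMSO, KRT8 was at 453 and PAX8 at 276 CPM, while MSLN was at 6.77, MUC16 at 2.82 and WT1 at 0.588 CPM. The summed level of the 10 was 8752 to 17442 CPM with DMSO and 5281 to 5839 with fenbendazole, most of it ERBB2. This gene was called lower with fenbendazole (log2 fold change -1.29, adjusted p = 0.0422, and -0.89 when DMSO 11 was left out). The part of this in the members' results was not tested. KRT7 was higher in every treated library than in any control, at 228, 231 and 225 CPM against 76.7, 183 and 71.3 CPM. Its log2 fold change was 1.05 (adjusted p = 0.148), and 1.63 without DMSO 11. At an unadjusted p of 0.05, 1 of the 10 was higher and 3 lower, beside 10.8% and 10.5% of all genes. Among markers of other cell types, the highest DMSO means were 15.1 CPM for CD68, 51.6 for COL1A1 and 10.3 for PECAM1. CD3E was at 0 in all libraries, and DMSO means were 0.189 CPM for PTPRC (leukocytes), 0.099 for DCN (fibroblasts) and 0.088 for VWF (endothelium). Of the leukocyte, fibroblast and endothelial lists, 1 of 4, 3 of 4 and 1 of 3 markers passed the filter. Their summed levels were 11.8 to 18.3, 38.0 to 84.3 and 9.70 to 11.6 CPM with DMSO, and 14.6 to 16.8, 40.8 to 44.6 and 12.05 to 12.99 CPM with fenbendazole. In bulk RNA, fewer cells of a type and less RNA per cell cannot be told apart.

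The cells carried the transcripts of a small part of the family at high levels. By deposited FPKM (fragments per kilobase of transcript, scaled to library size), 23 of the 45 members had a mean of at least 1 over the 6 libraries, and 9 had at least 10. The 5 highest made up 56.2% of the family's summed FPKM. They were ABCE1, the ribosome recycling factor, at a mean of 41.2 FPKM, ABCD3, a peroxisomal importer of fatty acids, at 37.4, ABCF1, a translation initiation factor, at 30.2, and the drug pumps ABCC3 at 28.99 and ABCC1 at 23.0. After filtering on low counts 34 members were tested. The 11 that were not tested were ABCA8, ABCA13, ABCB4, ABCB5, ABCB11, ABCC9, ABCC11, ABCC12, ABCD2, ABCG5 and ABCG8, none above 20 counts in a library. Of these ABCB4 and ABCB11, the phospholipid and bile salt exporters of liver, had no count in any library.

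**Figure D1:**
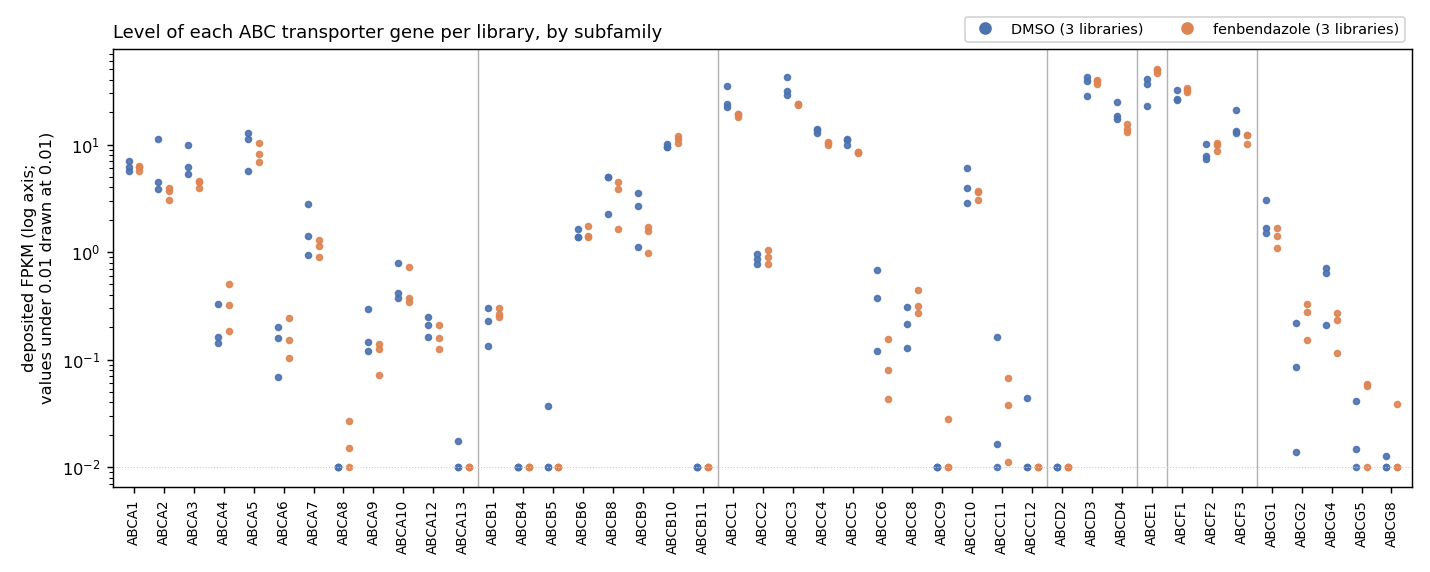
Deposited FPKM (log axis, values under 0.01 drawn at 0.01) of 43 of the 45 ABC transporter genes in each of the 6 libraries, grouped by subfamily. ABCE1, ABCD3, ABCF1, ABCC3 and ABCC1 lie highest, and some members of subfamilies A, B, C, D and G lie near the bottom of the scale.

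Between the groups, no member passed the threshold: edgeR's quasi-likelihood test with Benjamini-Hochberg adjustment over 17363 genes called 0 of 34 members at an adjusted p of 0.05. Over all genes 3.11% were called higher and 0.921% lower with fenbendazole. The smallest adjusted p of a member was 0.0838, for ABCC6. At an unadjusted p of 0.05, 3 members were higher (ABCC8, ABCE1 and ABCF1) and 6 lower (among them ABCA3, ABCC1, ABCC4, ABCC6 and ABCD4), while 10.8% of all genes were higher and 10.5% lower. DESeq2 called ABCC6 and ABCD4 lower (adjusted p of 0.0499 and 0.0384), where it called 4.66% of all genes lower, and no member higher. limma-voom called none. The median log2 fold change (fenbendazole minus DMSO) of tested members was -0.23, and 22 of 34 lay below 0. Over all tested genes the median was -0.06 and 54.98% lay below 0. Every library of one group lay beyond every library of the other for 5 members on the higher side (ABCB6, ABCB10, ABCC8, ABCE1 and ABCF1) and 9 on the lower (among them ABCA3, ABCA9, ABCC1, ABCC3, ABCC4, ABCC5, ABCC6 and ABCD4). Among all tested genes this held for 17.0% on the higher and 15.5% on the lower side.

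The calls differed with the treatment of DMSO 11 and with the method. Among tested members it was the highest of the 6 libraries for 13 and the lowest for 8, while over all tested genes it was highest for 33.8% and lowest for 33.3%. Without it, in a fit that drops the most deviant control and so may understate the spread between controls, ABCE1, ABCF1 and ABCG2 were called higher, where 13.1% of all genes were. ABCA3, ABCA5, ABCC1, ABCC4, ABCC6 and ABCD4 were called lower, where 9.23% of all genes were. With all 6 libraries and offsets for GC content and transcript length, a setting added after seeing the data, ABCC8, ABCE1 and ABCF1 were higher (12.2% of all genes) and ABCA5, ABCC4 and ABCD4 lower (8.31%). ABCE1 and ABCF1 on the higher side and ABCA5, ABCC4 and ABCD4 on the lower side passed in both of these fits. limma-voom with library quality weights, which gave DMSO 11 a weight of 0.074, called 4 members higher (14.0% of all genes) and 7 lower (12.4%). Each of these shares of members is to be read against the share of all genes beside it, and none was tested as a property of the family.

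**Figure D2:**
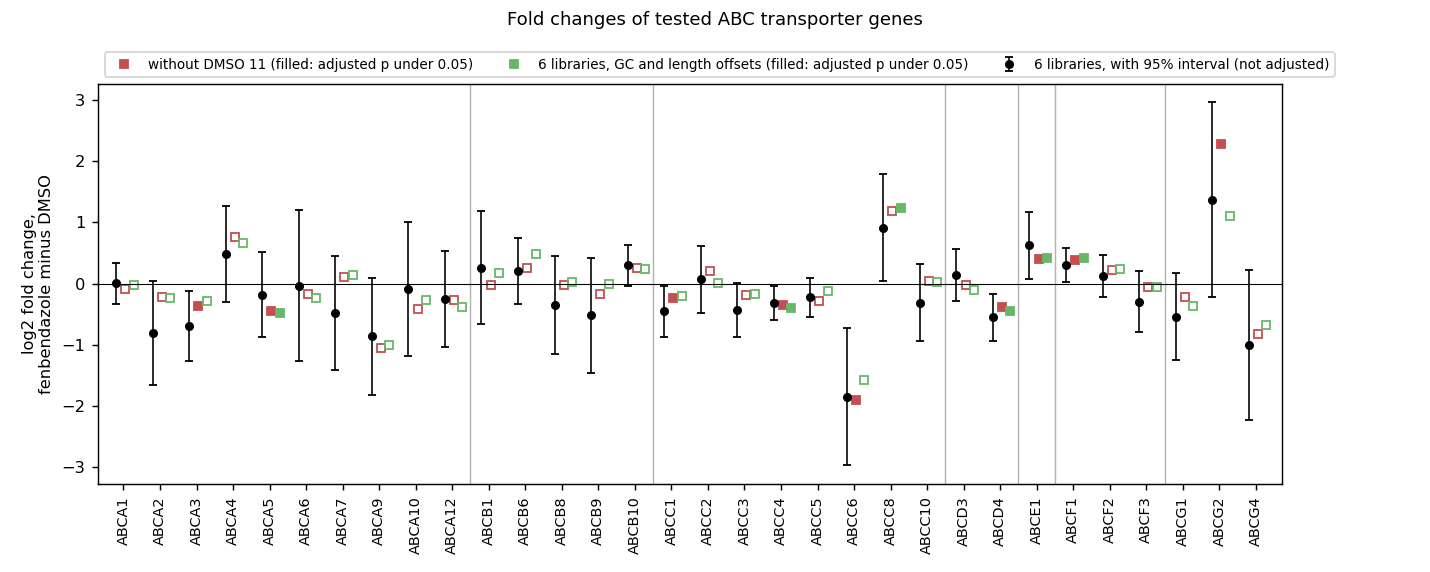
Log2 fold change (fenbendazole minus DMSO) of 32 of the 34 tested members with all libraries and its 95% interval, not adjusted for the number of genes, beside the estimates without DMSO 11 and with offsets for GC content and length. ABCC6 lies lowest at -1.85 and ABCG2 highest at 1.37, both with wide intervals, and ABCA2 moves from -0.81 to -0.22 without DMSO 11.

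Over the 34 tested members the difference between DMSO 11 and the other control libraries went with the GC content of the longest transcript, with a Pearson's r of 0.789 and a Spearman's rho of 0.785. The points share libraries and are genes, not independent replicates, so no p is given. The last position of codons gave r = 0.794 and rho = 0.810, with the share of G or C there running from 30.3% in ABCA5 to 86.1% in ABCA2. The log2 fold change itself went down with GC content (r = -0.449, rho = -0.51), and this was -0.105 and -0.0136 without DMSO 11. With the offsets it was -0.00217 and 0.0726. The offsets are fitted to GC content, so a value near 0 follows from how they are made. What set DMSO 11 apart was not tested.

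**Figure D3:**
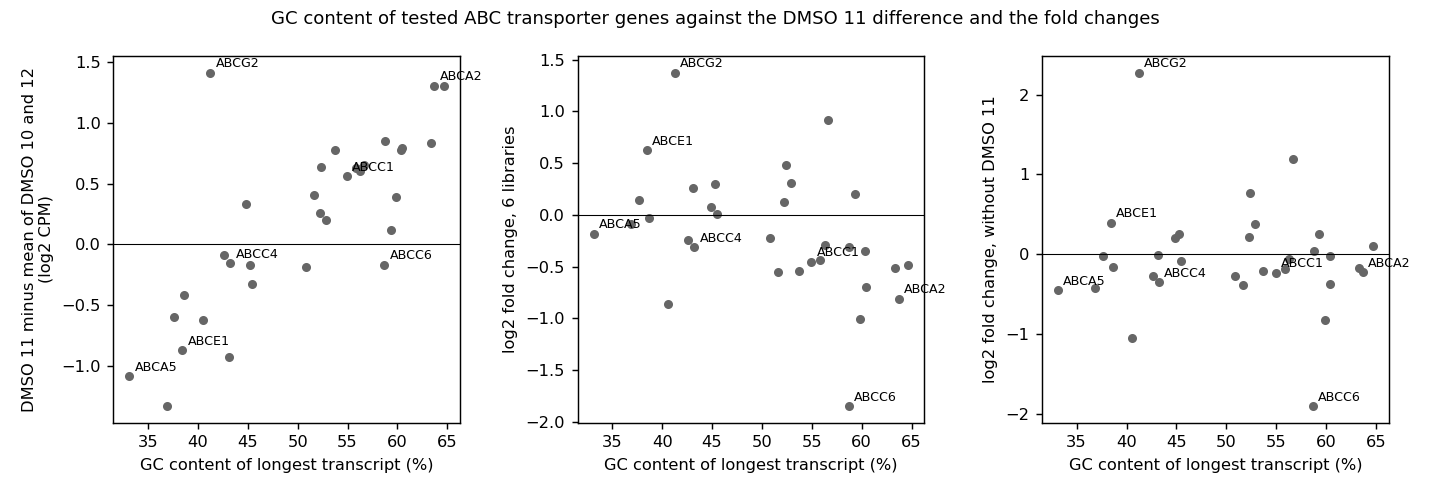
GC content of the longest transcript of 32 of the 34 tested members (x axis, %) against the log2 difference of DMSO 11 from the other control libraries and against the log2 fold changes with and without DMSO 11. The DMSO 11 difference rises with GC content, and over all 34 the r of the fold change with GC content is -0.449 with DMSO 11 and -0.105 without it.

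Among the drug pumps, ABCC1, ABCC3, ABCC4 and ABCC5 were lower in every fenbendazole library than in any DMSO library, by small amounts. The same held for 15.5% of all tested genes, and edgeR's test without offsets on all 6 libraries called no pump. ABCB1, ABCC2 and ABCG2 were at low levels in both groups. ABCC1 (MRP1, chr16:15949138-16143257) exports glutathione conjugates and many drugs. It was at 169.7, 239 and 154 CPM in DMSO 10, 11 and 12 and at 131, 139 and 142 in fenbendazole 7, 8 and 9. The highest value is that of DMSO 11, and the groups did not overlap. With all libraries the log2 fold change was -0.45 ± 0.179 (SE, adjusted p = 0.205), while it was -0.23 (adjusted p = 0.0306) when DMSO 11 was left out and -0.21 (adjusted p = 0.0707) with the offsets.

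ABCC4 (MRP4, chr13:95019835-95301475), an exporter of cyclic nucleotides and nucleotide analogs, was at 88.8, 78.1 and 85.3 CPM with DMSO and at 65.7, 68.7 and 69.0 CPM with fenbendazole. Here DMSO 11 was the lowest control and still above every treated library. The means were 84.1 ± 5.42 and 67.8 ± 1.85 CPM (SD, n = 3 each), and the log2 fold change was -0.31 ± 0.120 (SE, adjusted p = 0.195). It was -0.35 (adjusted p = 0.00551) without DMSO 11 and -0.40 (adjusted p = 0.00773) with the offsets.

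ABCC3 (MRP3, chr17:50634777-50692253), an exporter of glucuronides and bile salts, was at 129, 202 and 132 CPM with DMSO and at 115, 118 and 112 CPM with fenbendazole. Its log2 fold change was -0.43 with all libraries (adjusted p = 0.245) and -0.18 without DMSO 11 (adjusted p = 0.0759), so much of the mean difference lay in that library. ABCC5 (MRP5), another exporter of cyclic nucleotides, was at 62.2, 51.8 and 55.8 CPM with DMSO and at 46.3, 48.1 and 51.1 CPM with fenbendazole. The lowest control and the highest treated library nearly met, and the log2 fold change was -0.22 ± 0.136 (SE, adjusted p = 0.377). For ABCC5 it was -0.28 without DMSO 11 (adjusted p = 0.0559) and -0.12 with the offsets (adjusted p = 0.511).

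ABCB1 (chr7:87503017-87713323), the best known multidrug pump, was at 33, 18 and 18 counts in the DMSO libraries and at 23, 24 and 25 counts in the fenbendazole libraries. That is 1.84, 0.790 and 1.34 CPM against 1.52, 1.73 and 1.47 CPM, and the groups overlapped. The log2 fold change of 0.26 had a 95% interval of -0.66 to 1.18 (adjusted p = 0.735), and it was -0.01 when DMSO 11 was left out. ABCB1 overlaps RUNDC3B on the opposite strand, and the labels do not say whether strand was kept.

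ABCG2 (BCRP, chr4:88090150-88231628), which exports topoisomerase inhibitors and urate, had 2, 23 and 7 counts with DMSO and 13, 22 and 33 with fenbendazole. In CPM this was 0.111, 1.01 and 0.521 against 0.861, 1.59 and 1.94, so DMSO 11 lay inside the treated range and the other controls below it. ABCG2 had a log2 fold change of 1.37 ± 0.683 (SE, adjusted p = 0.288), 2.28 without DMSO 11 (adjusted p = 0.0351) and 1.10 with the offsets (adjusted p = 0.296). ABCC2 (MRP2), the exporter of conjugates into bile, was at 4.12, 5.44 and 4.46 CPM with DMSO and at 4.37, 4.98 and 5.42 CPM with fenbendazole. Its values overlapped, with a log2 fold change of 0.07 and an interval of -0.48 to 0.62.

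**Figure D4:**
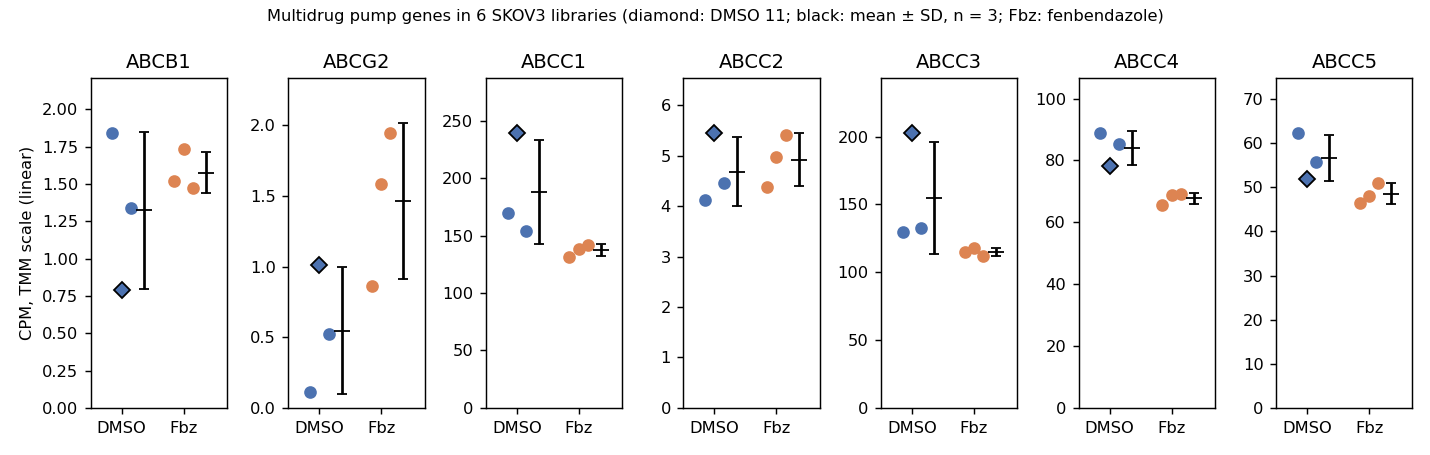
CPM on the TMM scale (linear, each panel from 0) of the 7 multidrug pump genes in the 6 libraries, with mean ± SD (n = 3 each) and DMSO 11 as a diamond. ABCC1, ABCC3, ABCC4 and ABCC5 are lower in all fenbendazole libraries, and ABCB1, ABCC2 and ABCG2 stay under 6 CPM. Of all tested genes 15.5% are likewise lower in every fenbendazole library than in any control.

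The rest of subfamily C held the member with the smallest p. ABCC6, whose loss causes pseudoxanthoma elasticum, lies on chromosome 16 next to ABCC1, with 6307 bases between them and on the opposite strand. It had 30, 25 and 11 counts with DMSO and 6, 5 and 4 with fenbendazole, or 1.67, 1.10 and 0.818 CPM against 0.397, 0.361 and 0.236 CPM. All treated libraries were lower, from a low level in every library. The log2 fold change was -1.85 ± 0.484 (SE), 3.60-fold lower with fenbendazole (adjusted p = 0.0838), -1.90 without DMSO 11 (adjusted p = 0.0473) and -1.58 with the offsets (adjusted p = 0.0724). Its near copies ABCC6P1 and ABCC6P2 were listed with 10 and 8 counts in all 6 libraries together, and how reads common to the copies were assigned is not given in the sources used here, so the level of ABCC6 is uncertain. ABCC8, the sulfonylurea receptor of potassium channels, is named for its values, having been picked after they were seen. It had 26, 42 and 11 counts with DMSO and 49, 30 and 42 with fenbendazole (log2 fold change 0.92 ± 0.377 SE, adjusted p = 0.220).

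In the ribosome-linked subfamilies E and F, ABCE1 and ABCF1 were higher in every fenbendazole library than in any control. The same held for 17.0% of all tested genes. ABCE1 (chr4:145098288-145129524), which splits ribosomes after termination, was at 157, 88.8 and 169 CPM with DMSO and at 216, 202 and 219.7 CPM with fenbendazole. DMSO 11 was far below the other controls, and all treated libraries were above all controls. For ABCE1 the log2 fold change was 0.63 ± 0.233 (SE, adjusted p = 0.184), 0.40 without DMSO 11 (adjusted p = 0.000971) and 0.43 with the offsets (adjusted p = 0.00254). ABCE1 overlaps ANAPC10 and OTUD4 on the opposite strand.

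ABCF1 (chr6:30571393-30597179), which binds the initiation factor eIF2 and ribosomes, was at 99.97, 113 and 96.1 CPM with DMSO and at 122, 131 and 129 CPM with fenbendazole. DMSO 11 was the highest control, the reverse of its place for ABCE1, and the groups did not overlap. ABCF1 had a log2 fold change of 0.30 ± 0.122 (SE, adjusted p = 0.207), and 0.38 without DMSO 11 (adjusted p = 0.00178). ABCF3, a relative that is known from antiviral defence, was at 31.8, 47.9 and 31.2 CPM with DMSO and at 31.4, 33.1 and 26.1 CPM with fenbendazole, and its groups overlapped (log2 fold change -0.29, adjusted p = 0.457). It was at -0.05 when DMSO 11 was left out.

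Subfamily D serves peroxisomes and lysosomes, and 2 of its tested members are described. ABCD4 (chr14:74285269-74303055), which moves vitamin B12 out of lysosomes, was at 44.9, 58.8 and 43.6 CPM with DMSO and at 32.2, 34.6 and 34.04 CPM with fenbendazole. The groups did not overlap. The log2 fold change was -0.55 ± 0.165 (SE, adjusted p = 0.118) with all libraries and -0.39 (adjusted p = 0.0154) without DMSO 11. The ABCD4 gene overlaps, on the same strand, a gene listed without a symbol that has counts of its own. ABCD3, the most abundant peroxisomal member, was at 153, 105 and 165 CPM with DMSO and at 159.6, 146 and 159 CPM with fenbendazole. Its groups overlapped, with a log2 fold change of 0.14 ± 0.180 (SE, adjusted p = 0.680) that was -0.02 when DMSO 11 was left out.

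Subfamily A moves lipids. Of its 10 tested members 8 had a log2 fold change below 0, with a median of -0.21, beside 54.98% of all tested genes below 0, and no member was called. ABCA3, which loads phospholipid into lamellar bodies, was at 39.0, 69.5 and 41.1 CPM with DMSO and at 27.2, 33.3 and 31.9 CPM with fenbendazole. The groups did not overlap, with a log2 fold change of -0.69 ± 0.246 (SE, adjusted p = 0.168), -0.37 without DMSO 11 (adjusted p = 0.0384) and -0.28 with the offsets (adjusted p = 0.121). ABCA2, a lipid transporter of late endosomes and lysosomes, was at 40.1, 93.1 and 35.03 CPM with DMSO and at 32.2, 35.3 and 28.6 CPM with fenbendazole. For ABCA2 the log2 fold change was -0.81 (adjusted p = 0.252), and it was -0.22 when DMSO 11 was left out (adjusted p = 0.222). ABCA5, a lysosomal member, had the highest FPKM of the subfamily and was at 56.7, 29.1 and 67.2 CPM with DMSO and at 46.8, 38.5 and 49.6 CPM with fenbendazole. DMSO 11 was its lowest library, below the treated ones, while the other controls were above them. The log2 fold change was -0.18 with all libraries (adjusted p = 0.755), -0.45 without DMSO 11 (adjusted p = 0.0155) and -0.48 (adjusted p = 0.00318) with the offsets. ABCA1, the cholesterol exporter that forms HDL, is outside the rule for named genes and was picked after its values were seen. It was at 73.4, 61.8 and 81.8 CPM with DMSO and at 75.2, 68.8 and 74.1 CPM with fenbendazole, a log2 fold change of 0.01.

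In the rest of subfamily B, ABCB10, a transporter of the inner mitochondrial membrane tied to heme synthesis, had the highest FPKM. It was at 44.3, 37.7 and 40.6 CPM with DMSO and at 49.1, 46.0 and 55.8 CPM with fenbendazole, without overlap. The log2 fold change was 0.30 ± 0.147 (SE, adjusted p = 0.281), and 0.25 without DMSO 11 (adjusted p = 0.121). ABCB9, a lysosomal peptide transporter, was at 6.35, 8.51 and 3.12 CPM with DMSO and at 2.85, 4.98 and 4.83 CPM with fenbendazole. Its groups overlapped (log2 fold change -0.52, adjusted p = 0.489, and -0.17 when DMSO 11 was left out), and it also overlaps OGFOD2 and ARL6IP4 on the opposite strand. In subfamily G, besides ABCG2, the sterol exporters ABCG1 and ABCG4 were low. ABCG1 was at 5.80, 9.87 and 5.65 CPM with DMSO and at 4.97, 5.85 and 3.95 CPM with fenbendazole (log2 fold change -0.54, adjusted p = 0.342, and -0.22 when DMSO 11 was left out). ABCG4 had 16, 53 and 35 counts with DMSO and 8, 18 and 18 with fenbendazole (log2 fold change -1.003 ± 0.524 SE, adjusted p = 0.310). The groups of both genes overlapped. Of the other tested members ABCA4, ABCA6, ABCA7, ABCA9, ABCA10, ABCA12, ABCB6, ABCB8, ABCC10 and ABCF2 had log2 fold changes from -0.86 (ABCA9) to 0.49 (ABCA4).

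By subfamily, the median log2 fold change was -0.21 for A, 0.09 for B (6 tested), -0.31 for C (8 tested), -0.55 for D (3 tested), 0.12 for F (3 tested) and -0.54 for G (3 tested), while ABCE1 alone stands for E. Without DMSO 11 the median turned to -0.02 for B, and it was -0.31 for D, 0.22 for F and -0.22 for G. On the scale of summed FPKM the family was at 283.8, 322 and 292 in DMSO 10, 11 and 12, and at 275, 270.4 and 272 in fenbendazole 7, 8 and 9. Subfamily C made up 29.04, 33.6 and 28.7% of that sum with DMSO and 23.7, 24.5 and 24.5% with fenbendazole. ABCE1 made up 13.0, 7.10 and 13.95% with DMSO and 18.2, 17.2 and 18.3% with fenbendazole. Subfamily A made up 10.5, 11.4 and 11.1% with DMSO and 9.77, 8.61 and 8.92% with fenbendazole. The make-up thus had smaller parts of ABCA and ABCC and a larger part of ABCE1 transcript in each treated library than in any control. DMSO 11 was at the far end of each of these. The shares of subfamilies B, D, F and G overlapped between the groups. Subfamily D, for one, made up 20.7, 18.9 and 21.5% with DMSO and 19.8, 19.9 and 20.1% with fenbendazole. As parts of the same whole, the shares cannot move independently. These sums were not tested, since the members were chosen with results of these data known.

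**Figure D5:**
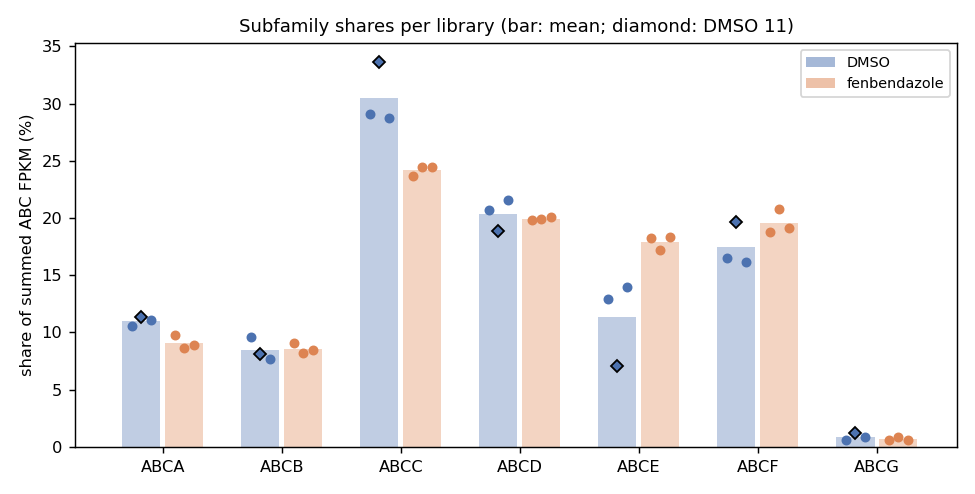
Share of each subfamily in the summed FPKM of the 45 members (y axis, %) per library, with bars at the group means and DMSO 11 as a diamond. Subfamily C lies between 23.7 and 24.5% with fenbendazole and at 28.7% or more with DMSO. ABCE1 lies at 17.2% or more with fenbendazole and at 13.95% or less with DMSO. Subfamily A lies between 8.61 and 9.77% with fenbendazole and at 10.5% or more with DMSO. The shares of subfamilies B, D, F and G overlap between the groups.

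Genes that work with the family were read from 11 lists of 51 genes, of which 46 were tested. edgeR's quasi-likelihood test called 0 of 46, with a median log2 fold change of -0.05. At an unadjusted p of 0.05, 6 were higher and 6 lower, near the 10.8% and 10.5% of all genes. Without DMSO 11, 10 were called higher (13.1% of all genes) and 7 lower (9.23%). With the offsets the counts were 6 higher (12.2% of all genes) and 7 lower (8.31%). Of the 6 genes of ribosome recycling and translation, the partners of ABCE1 and ABCF1, 4 were higher at an unadjusted p of 0.05 (10.8% of all genes). Without DMSO 11, 5 were called higher (13.1% of all genes), and with the offsets 2 were (12.2%). ETF1, the termination factor that precedes ABCE1 on the ribosome, was at 436, 341 and 438 CPM with DMSO and at 556, 542 and 542 CPM with fenbendazole. Its groups did not overlap (log2 fold change 0.43 ± 0.134 SE, adjusted p = 0.123). Those of EIF2S1, the eIF2 subunit, were also apart, at 194, 137 and 169 against 235, 222 and 234 CPM. For EIF2S1 the adjusted p was 0.136 in the main setting, 0.00327 when DMSO 11 was left out and 0.0825 under the offsets. Every treated library lay above every control in 17.0% of all tested genes. PELO, a rescue factor for stalled ribosomes, and GCN1 had overlapping groups, at -0.003 and 0.10 on the log2 scale. GCN1 moved to 0.33 when DMSO 11 was left out (adjusted p = 0.0050).

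Of the resistance genes outside the family, MVP, which encodes the major vault protein, was at 111, 195 and 104 CPM with DMSO and at 69.6, 80.5 and 69.4 CPM with fenbendazole. All treated libraries were lower, at -0.90 ± 0.249 on the log2 scale (SE, adjusted p = 0.0967), and at -0.55 when DMSO 11 was left out (adjusted p = 0.000444). TAP2, an ABC protein of antigen presentation with another kind of symbol, was at 44.7, 56.6 and 44.4 CPM with DMSO. With fenbendazole TAP2 was at 66.2, 62.3 and 64.4 CPM (adjusted p = 0.176, and 0.000755 when DMSO 11 was left out). Its partner TAP1 had a log2 fold change of -0.01, and of 0.30 when DMSO 11 was left out (adjusted p = 0.0972). SREBF1, a regulator of lipid synthesis, was at 35.8, 103 and 39.5 CPM with DMSO and at 27.9, 20.7 and 18.02 CPM with fenbendazole. Its adjusted p was 0.116, and 0.00692 when DMSO 11 was left out. Of the drug-sensing receptors, AHR was at 209, 155 and 213 CPM with DMSO and at 139.8, 162 and 162 CPM with fenbendazole. DMSO 11 thus lay among the treated libraries. The log2 fold change of AHR was -0.32 (adjusted p = 0.290), and -0.44 when DMSO 11 was left out (adjusted p = 0.000788). Without DMSO 11, 13.1% of all genes were called higher and 9.23% lower. NR1I2 and NR1I3, the receptors PXR and CAR that induce ABCB1 in liver, had at most 2 and 7 counts in a library and were not tested.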

How the data were processed

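Poly(A) RNA of 3 DMSO and 3 fenbendazole libraries of SKOV3 was sequenced. The authors deposited raw read counts for each gene, as whole numbers, and, per the file headers, FPKM of the same libraries. The submitters' processing notes name GRCh38 as the build and list CASAVA 1.8, HISAT2 2.1.0, StringTie 1.3.4b and edgeR. Which program counted the reads, how it treated strand and multi-mapped reads, and from which annotation is not given in the sources used here. Genes that overlap on either strand or have near-identical copies may therefore share reads.

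The quasi-likelihood F test of edgeR 4.0.16, in R 4.3.3, was run on the counts with TMM scaling and its own filter on low counts, over 17363 genes, at a Benjamini-Hochberg adjusted p of 0.05. SE values come from the F statistic, and CPM are on the TMM scale. Replicates differed by more than sampling noise (lowest chi-square divided by its degrees of freedom, 4.864). Other settings used limma 3.58.1, DESeq2 1.42.0, other scalings and filters, and limma on log2 FPKM plus 1 or 0.1 for genes with a mean FPKM of at least 0.1. Offsets for GC content and length, a loess per library from the longest GENCODE 29 transcript (97.8% of tested genes), were added after seeing the data.

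The members and lists were chosen with earlier results of these data known. Among members, values per library are given for the 7 pumps and, in each subfamily, for the member with the highest mean FPKM and the members with the 2 smallest p. ABCC8 and ABCA1 were added after their values were seen. The markers, partner genes and relatives shown per library follow no such rule. Values of 2 members, which stay in the counts, medians and sums, are not reported here. Figures were drawn with matplotlib 3.10.9 (Python 3.11.15).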

Additional observations from a re-analysis of the deposited data

How the results depend on the processing

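No member was called in the main setting, edgeR without offsets on all 6 libraries (0 higher, 0 lower, beside 3.11% and 0.921% of all genes). Calls appeared with limma-voom with library quality weights (4 higher, 7 lower, beside 14.0% and 12.4% of all genes). They also appeared with offsets for GC content and length (3 higher, 3 lower, beside 12.2% and 8.31%). DESeq2 called 0 higher and 2 lower, beside 6.66% and 4.66% of all genes. Leaving out each library in turn gave 0 to 3 higher and 0 to 6 lower members, and all of those calls came without DMSO 11. That fit called 13.1% of all genes higher and 9.23% lower. The fits without another library called 0.763 to 2.32% of all genes higher and 0.0437 to 0.553% lower. Upper-quartile or median-of-ratios scaling, omitting the filter, limma-voom, FPKM with either pseudocount, an adjusted p of 0.01 and a test against a 1.5-fold change gave 0 in both directions, as did the filter of 1 CPM, which left 29 members. With no call in the main setting none could be lost or reversed, and between 0 and 5 uncalled members changed sign in a setting. The cause was not tested.

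No paired analysis was possible because DMSO libraries are numbered 10 to 12 and fenbendazole libraries 7 to 9. Depth limits the members with few counts, ABCG2, ABCC6 and ABCB1 among those named, and 3 libraries a group limit the precision of all.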

Other observations

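Some neighbouring members were expressed at unlike levels. On chromosome 7, ABCB4 lies 22581 bases from ABCB1 and had no count in any library. In the ABCA cluster on chromosome 17, ABCA5 was at a mean of 9.22 FPKM, while ABCA10, which overlaps it on the same strand, was at 0.507, ABCA6 at 0.155, ABCA9 at 0.149 and ABCA8 at 0.00697. On chromosome 16, ABCC1 was at 23.0 FPKM and ABCC6 at 0.242.

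Of the relatives outside the member rule, ABCA11P, a transcribed pseudogene, had 301, 179 and 293 counts in DMSO 10, 11 and 12 and 286, 223 and 336 in fenbendazole 7, 8 and 9. ABCC13 had 15 counts in all 6 libraries together.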
